A study of Mus musculus with 8 samples.

Results

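The subject is a module of 31 genes of the interferon response and of antigen presentation by major histocompatibility complex (MHC) class I, followed by RNA-seq in mouse pancreatic islets. The 31 members were taken by gene symbol from a count table of 24537 genes: 21 interferon-induced genes and 10 genes of class I presentation, and all 31 were found. Islets of 12-week-old male Wfs1KO mice (4 libraries) were set against islets of 12-week-old male WT mice (4 libraries). No treatment was given to either genotype, and islets were obtained with collagenase and a density gradient. Wolframin, the product of Wfs1, sits in the membrane of the endoplasmic reticulum, and its loss in people causes Wolfram syndrome, a disease with diabetes. The labels do not say how the Wfs1KO allele was made, which cells lack the gene, the strain, or whether a library held islets of 1 mouse or of several, so p-values measure the spread between these libraries. The comparison asks whether the module differs between islets with and without Wfs1.

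Type I interferons and interferon-gamma bind cell-surface receptors, and Janus kinases then activate STAT transcription factors. Complexes of these factors with IRF9 bind the interferon-stimulated response element (ISRE), other STAT complexes bind the gamma-activated site (GAS), and both switch on antiviral genes and the class I pathway. In that pathway the immunoproteasome cuts proteins into peptides, the TAP transporter moves them into the endoplasmic reticulum, tapasin loads them onto class I heavy chains paired with beta-2 microglobulin, and the complex is shown to CD8 T cells. In human islets, class I hyperexpression and an interferon signature are known features of type 1 diabetes.

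Exon counts per library ran from 15810830 to 27057617. Levels are given as CPM (counts scaled to a common library size), each value in the order of replicates 1 to 4. Wfs1 itself was at 182, 156, 190 and 188 CPM in WT and at 101, 105, 125 and 98.9 CPM in Wfs1KO, a fall of log2 -0.74 (SE 0.08, adjusted p = 5.06e-05, edgeR), and reads over its exons remained in every Wfs1KO library. The 10 beta-cell markers summed to 163206 to 209021 CPM in WT and to 110443 to 135696 CPM in Wfs1KO, high in both genotypes, and 8 of the 10 fell while 1 rose. In bulk RNA, fewer cells of a type and less RNA per cell cannot be told apart. Of other cell types, 12 of 14 endothelial markers rose (summed level 665 to 753 CPM in WT, 900 to 1056 CPM in Wfs1KO), and 13 acinar markers took 3.45% to 7.34% of counts in WT and 1.15% to 7.36% in Wfs1KO with none called. Of 3 delta and PP cell markers 2 rose, of 8 ductal markers 2 rose and 1 fell, and of 5 alpha cell markers 0 were called. Leukocyte markers, which move with several members, are given beside those members.

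Over all 8 libraries no member rose in Wfs1KO islets and 5 fell: Oasl2, Ifit1, Irf1 and Stat2 of the interferon-induced genes, and Tapbp of the class I genes. A gene was called, and is said to have risen or fallen, where its adjusted p was under 0.05 in edgeR's quasi-likelihood test over all tested genes, 18.9% of which were called (8.49% lower and 10.4% higher in Wfs1KO). Of the 30 members with enough counts to be tested, the 5 called are 16.7%, a share near that of all genes, and all 5 were lower. The genotypes did not overlap for 4 members, all lower in Wfs1KO, against 10.3% of tested genes that were lower and 12.3% that were higher without overlap. For the interferon-induced genes the count was 4 of 20 (20%), for class I 1 of 10 (10%). The falls were of unequal size, from log2 -0.83 for Oasl2 to -0.23 for Stat2. With replicates 1 and 2 alone, 3 members were called higher (Bst2, Gbp2 and Cxcl10) and 4 lower (Oasl2, Ifit1, Stat2 and Tapbp), against 9.47% and 8.51% of the genes tested in that fit. Cxcl10, not tested over all 8 libraries, passed that fit's count filter only with its Wfs1KO libraries, where it was high. Its call was thus not independent of the filter.

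The other 25 tested members were not called. Over all 30 tested members 18 fold changes were positive and 12 negative, and the median log2 fold change was 0.08, against 0.01 over all tested genes. The median was 0.07 for the interferon-induced genes (11 positive, 9 negative) and 0.09 for class I (7 positive, 3 negative). Both medians turned negative with replicates 3 and 4 alone (-0.03 and -0.06), and that of the interferon-induced genes also without Wfs1KO replicate 3 (-0.0051). The members' median SD of log2 CPM was 0.17 in WT and 0.25 in Wfs1KO, against 0.12 and 0.12 over all tested genes. By arm it was 0.17 and 0.26 for the interferon-induced genes and 0.13 and 0.23 for class I. In WT the class I genes thus varied about as much as the median tested gene. The comparison was not matched for abundance, and 12 of the 21 interferon-induced genes averaged under 5 CPM in WT.

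**Figure D1:**
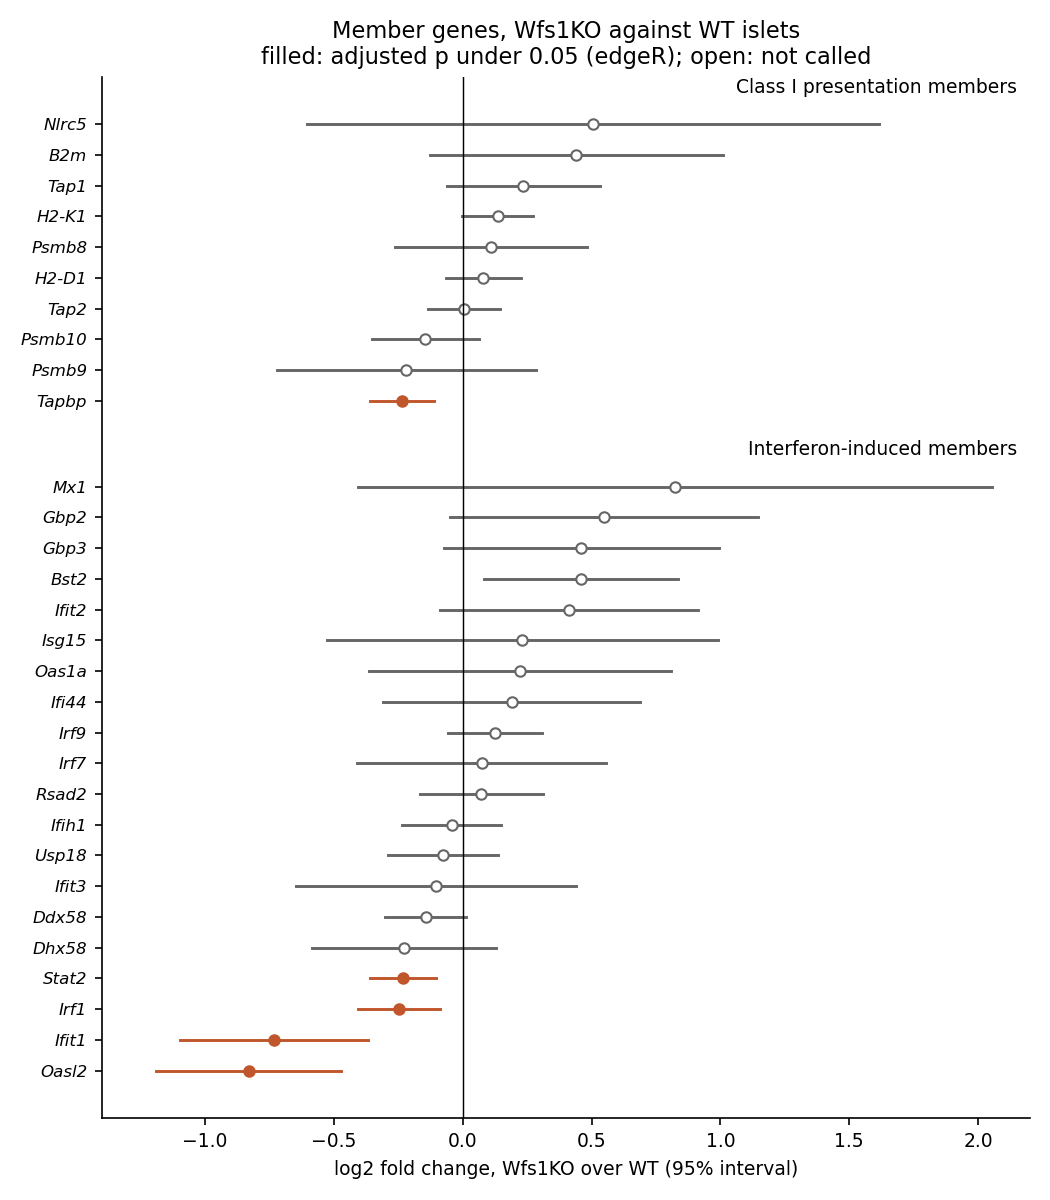
Log2 fold change of Wfs1KO over WT islets for the 30 tested members (x axis, points, with 95% intervals as lines), class I genes above and interferon-induced genes below. The 5 filled points, all left of 0, are the members with an adjusted p under 0.05, and the open points straddle 0 with wide intervals for Mx1 and Nlrc5.

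The promoters of the 5 members that fell and of Tap1 are shown because the ISRE and GAS cores are the sequences through which interferon signalling is known to reach such genes. Each is the RefSeq window (GRCm38.p6, the mm10 assembly) from 250 bases before to 50 bases after the start site, written 5′ to 3′ on the gene's strand. Matches to the ISRE core (GAAANNGAAA on either strand), the GAS core (TTCNNNGAA, its own reverse complement) or the NF-kappaB core (GGGNNTTTCC on either strand) are in capitals. The windows lie at chr5:114896684-114896983 (plus strand, Oasl2), chr19:34640639-34640938 (plus, Ifit1), chr10:128270248-128270547 (plus, Stat2), chr11:53769764-53770063 (plus, Irf1, the first of its RefSeq starts), chr17:33919228-33919527 (plus, Tapbp) and chr17:34187306-34187605 (plus, Tap1).
Oasl2: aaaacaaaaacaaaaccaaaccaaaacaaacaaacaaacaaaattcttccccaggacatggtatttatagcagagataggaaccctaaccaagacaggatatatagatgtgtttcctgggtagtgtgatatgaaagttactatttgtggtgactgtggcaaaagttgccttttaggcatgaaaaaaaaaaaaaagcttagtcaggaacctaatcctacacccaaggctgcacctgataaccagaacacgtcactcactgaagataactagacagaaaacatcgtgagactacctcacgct
Ifit1: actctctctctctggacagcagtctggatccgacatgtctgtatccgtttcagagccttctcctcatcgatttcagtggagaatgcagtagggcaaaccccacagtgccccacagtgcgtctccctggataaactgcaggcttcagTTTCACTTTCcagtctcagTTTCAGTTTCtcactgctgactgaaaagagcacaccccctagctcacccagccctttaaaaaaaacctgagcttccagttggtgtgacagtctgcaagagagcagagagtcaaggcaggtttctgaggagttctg
Stat2: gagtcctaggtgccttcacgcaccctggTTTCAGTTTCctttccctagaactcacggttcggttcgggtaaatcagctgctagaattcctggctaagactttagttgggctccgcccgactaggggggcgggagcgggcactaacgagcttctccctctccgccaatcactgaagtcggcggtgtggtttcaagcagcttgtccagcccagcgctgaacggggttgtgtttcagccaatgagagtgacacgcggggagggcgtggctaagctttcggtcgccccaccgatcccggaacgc
Irf1: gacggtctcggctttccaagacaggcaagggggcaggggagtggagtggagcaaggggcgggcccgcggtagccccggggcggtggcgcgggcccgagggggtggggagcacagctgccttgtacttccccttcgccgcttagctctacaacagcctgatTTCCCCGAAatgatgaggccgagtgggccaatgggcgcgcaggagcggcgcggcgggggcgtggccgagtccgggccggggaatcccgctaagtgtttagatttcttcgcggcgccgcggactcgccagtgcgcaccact
Tapbp: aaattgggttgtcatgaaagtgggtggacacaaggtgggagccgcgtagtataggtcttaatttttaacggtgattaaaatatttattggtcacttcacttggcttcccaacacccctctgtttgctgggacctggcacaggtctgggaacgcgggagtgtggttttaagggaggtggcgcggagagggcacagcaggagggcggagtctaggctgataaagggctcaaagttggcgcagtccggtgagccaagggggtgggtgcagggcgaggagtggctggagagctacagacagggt
Tap1: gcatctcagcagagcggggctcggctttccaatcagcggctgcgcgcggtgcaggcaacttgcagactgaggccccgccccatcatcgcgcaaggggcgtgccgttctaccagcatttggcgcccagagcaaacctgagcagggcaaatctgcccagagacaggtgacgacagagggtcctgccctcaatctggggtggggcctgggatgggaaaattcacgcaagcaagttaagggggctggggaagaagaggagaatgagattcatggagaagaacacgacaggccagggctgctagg

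Ifit1 carries 2 ISRE matches, 104 to 95 and 85 to 76 bases before its start, and Stat2 carries 1, 222 to 213 bases before its start. Irf1 holds a GAS match, TTCCCCGAA, 90 to 82 bases before its start. The windows of Oasl2 and Tapbp, which fell as well, hold none of the 3 letter patterns, nor does that of Tap1. Psmb9 is transcribed the opposite way from a start site 226 bases from that of Tap1, and the Psmb9 and Tap1 windows share 275 bases.

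Of the 31 members 26 had a promoter in the table, and Mx1, Dhx58, Usp18, Nlrc5 and Tap2 had none. An ISRE core lay in 13 of the 26, against 3.99% of the 27025 genes with a promoter in the table. The arms differed in letters: 12 of 18 interferon-induced genes held the core (Isg15, Ifit1, Ifit3, Oas1a, Rsad2, Bst2, Gbp2, Gbp3, Cxcl10, Ifih1, Ddx58 and Stat2), but 1 of 8 class I genes, B2m. Isg15 held 3 overlapping matches, between 78 and 57 bases before its start, and B2m held an ISRE match (GAAACTGAAA) 139 to 130 bases before its start next to an NF-kappaB match (GGAAAGTCCC). A GAS core lay in 5 members (Ifit2, Oas1a, Bst2, Irf1 and Psmb8), against 9.55% of genes. A match is a run of letters, and whether a factor binds there was not measured. Only these exact cores were searched for, so a window without a match may hold a site that departs from them. Genes with an ISRE match were among those that fell (Ifit1, Stat2) and among those that were not called, such as Isg15, Bst2 and B2m.

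Among the 12 antiviral effectors, 2 fell and 10 were not called. Oasl2 (mm10 chr5:114896934-114912245), an interferon-induced protein of the oligoadenylate synthetase family, was at 9.41, 10.4, 8.10 and 8.25 CPM in WT and at 6.51, 5.42, 4.73 and 3.51 CPM in Wfs1KO. Every Wfs1KO library lay below every WT library, and Wfs1KO 4 was the lowest. The means were 9.04 ± 1.07 and 5.04 ± 1.26 CPM (SD, n = 4 each), which is log2 -0.83 in the fit (SE 0.17; 95% interval from -1.19 up to -0.47; adjusted p of 0.00318 in edgeR).

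Ifit1 (chr19:34640889-34650009), which binds viral RNA with an incompletely methylated cap, was at 6.04, 5.77, 4.39 and 4.91 CPM in WT and at 3.99, 3.0, 2.94 and 2.72 CPM in Wfs1KO. Here too the genotypes did not overlap. The fit gave log2 -0.73 (SE 0.17; 95% interval from -1.10 up to -0.37; adjusted p of 0.00789 in edgeR), from counts of 51 to 115 reads per library. Its neighbours on chromosome 19 were not called: Ifit3 had a log2 fold change of -0.10 (SE 0.25) and Ifit2, another RNA-binding family member, 0.41 (SE 0.23, adjusted p = 0.253). Ifit3 and its near copy Ifit3b, and Ifit1 and its paralogs, may share reads, and how such reads were counted is not given in the sources used here.

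Bst2 (tetherin, which holds budding virus at the cell surface) had the smallest adjusted p among members above WT. It was at 4.47, 4.73, 4.52 and 4.07 CPM in WT and at 7.84, 6.92, 4.5 and 5.0 CPM in Wfs1KO. Wfs1KO 1, 2 and 4 stood above all WT libraries, Wfs1KO 4 by a small margin, and Wfs1KO 3 lay within their range. At log2 0.46 (SE 0.17, 95% interval from 0.08 up to 0.83) it did not pass (adjusted p = 0.0863, edgeR), but passed without Wfs1KO replicate 3 (adjusted p = 0.0277) and in limma-voom with quality weights (adjusted p = 0.0413). It also passed with replicates 1 and 2 and replicates 3 and 4 fitted as 2 batches (adjusted p = 0.0442, edgeR). It did not pass in DESeq2 (adjusted p = 0.119), with the replicate block (0.0893, edgeR) or with replicates 3 and 4 alone (0.742, edgeR). Removing any 1 library other than Wfs1KO 3 also left Bst2 uncalled (adjusted p from 0.0532 to 0.262, edgeR).

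The guanylate-binding GTPases Gbp2 and Gbp3, which attack vacuoles of intracellular pathogens, were also highest in the first and second Wfs1KO libraries. Gbp2 was at 2.84, 3.35, 2.09 and 2.36 CPM in WT and at 5.99, 4.1, 3.06 and 2.28 CPM in Wfs1KO (log2 0.55, SE 0.27, adjusted p = 0.199). Gbp3 was at 2.31, 2.42, 2.36 and 1.91 CPM in WT and at 4.52, 3.29, 2.02 and 2.42 CPM in Wfs1KO (log2 0.46, SE 0.25, adjusted p = 0.231). In both genes the last 2 Wfs1KO libraries lay within or near the WT range.

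Several classical interferon-stimulated genes were scarce in both genotypes. Isg15, the ubiquitin-like modifier, was at 0.608 to 1.04 CPM in WT and 0.693 to 1.16 CPM in Wfs1KO, from 9 to 33 reads per library, and its interval ran from -0.53 to 0.99 on the log2 scale. Mx1, a dynamin-like GTPase that is defective in many laboratory strains, was at 0.0675 to 0.683 CPM and 0.247 to 0.968 CPM, from 1 to 26 reads, with an interval of -0.41 to 2.05. Both intervals span rises and falls. Oas1a, which makes oligoadenylates that activate RNase L, was at 1.1 to 1.42 CPM in WT and 1.14 to 1.82 CPM in Wfs1KO, and Ifi44 at 1.52 to 2.66 and 1.88 to 2.77 CPM, with log2 fold changes of 0.22 (SE 0.27) and 0.19 (SE 0.23). Rsad2 (viperin, a radical SAM enzyme that makes a chain-terminating nucleotide) was at 15.5 to 19.7 CPM in WT and 15.3 to 21.1 CPM in Wfs1KO, with a log2 fold change of 0.07 (SE 0.11).

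The 3 cytosolic RNA sensors were not called, and all 3 estimates were negative. Ifih1 (MDA5), the sensor of long double-stranded RNA and a type 1 diabetes risk gene in people, was at 21.4 to 26.2 CPM in WT and 20.7 to 25.3 CPM in Wfs1KO, with a log2 fold change of -0.04 (95% interval -0.24 to 0.15). Ddx58 (RIG-I), which senses uncapped RNA ends, was at 33.2 to 37.5 CPM and 28.5 to 34.7 CPM (log2 -0.14, 95% interval -0.30 to 0.01, adjusted p = 0.203). For Dhx58 (LGP2), which modulates both, the log2 fold change was -0.23 (SE 0.16). The intervals of Ifih1 and Ddx58 do not reach the estimates for Oasl2 and Ifit1. Both do reach the smaller estimate for Stat2, and that of Ddx58 also reaches those for Irf1 and Tapbp.

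Of the 4 transcription factors, Stat2 and Irf1 fell modestly while Irf9 and Irf7 were not called. Stat2 (chr10:128270576-128292849), the STAT specific to type I and type III interferon signalling, was at 32.6, 35.6, 32.3 and 32.3 CPM in WT and at 27.9, 27.2, 29.9 and 28.1 CPM in Wfs1KO. The genotypes did not overlap, and the fit gave log2 -0.23 (SE 0.06; 95% interval from -0.36 up to -0.10; adjusted p of 0.0135 in edgeR). Irf9, its DNA-binding partner, was at 16.4 to 19.9 CPM in WT and 17.8 to 21.6 CPM in Wfs1KO (log2 0.13, SE 0.08, adjusted p = 0.344), and its exons overlap those of Rnf31 on the same strand.

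Irf1 (chr11:53770014-53777324), the factor that carries much of the response to interferon-gamma and switches on class I genes, was at 43.8, 49.5, 40.9 and 45.9 CPM in WT. In Wfs1KO it was at 41.9, 38.3, 37.2 and 34.2 CPM, with the first library inside the WT range. The fit gave log2 -0.25 (SE 0.07; 95% interval from -0.41 up to -0.09), with an adjusted p of 0.0302 in edgeR. That call did not survive the removal of WT 1, WT 2 or WT 4 (adjusted p = 0.0515, 0.0851 and 0.0695) or of Wfs1KO 2 or Wfs1KO 4 (0.0618 and 0.0616), nor limma-voom (0.0575). Irf7, the amplifier of type I interferon production, was low, at 2.73 to 4.56 CPM in WT and 2.38 to 4.45 CPM in Wfs1KO (log2 0.07, SE 0.22).

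Usp18, which strips Isg15 from proteins and restrains the type I receptor, was at 14.0 to 19.8 CPM in WT and 15.1 to 16.6 CPM in Wfs1KO (log2 -0.08, SE 0.10). Cxcl10, the chemokine that draws activated T cells, was the 1 member that was not tested over all 8 libraries. Its reads numbered 9, 11, 3 and 3 in WT and 74, 18, 3 and 3 in Wfs1KO, that is 0.473, 0.635, 0.203 and 0.147 CPM against 2.59, 0.871, 0.173 and 0.148 CPM. Wfs1KO 1 thus held most of the Cxcl10 reads of its genotype, while Wfs1KO 3 and 4 were at the level of WT 3 and 4.

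**Figure D2:**
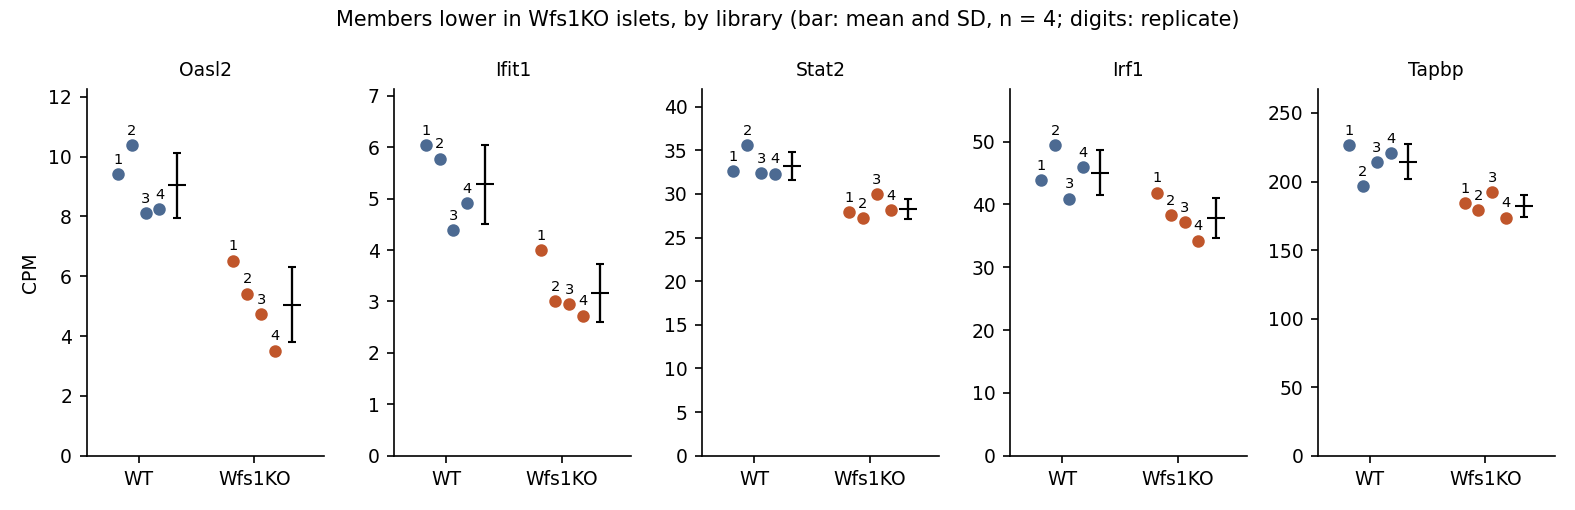
CPM (y axis, from 0) of the 5 members that fell, in the 4 WT and 4 Wfs1KO libraries (points, numbered by replicate), with the mean and SD of each genotype as bars. Oasl2, Ifit1, Stat2 and Tapbp show no overlap between genotypes, and in Irf1 the first Wfs1KO library lies among the WT libraries.

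Class I genes were far more abundant than interferon-induced ones in these islets. Per length, the median WT level was 16.7 RPKM (CPM per kilobase of exon) over the 10 class I genes and 1.85 RPKM over the 21 interferon-induced genes. The heavy chain genes H2-K1 (226 RPKM) and H2-D1 (171 RPKM) led in WT, followed by B2m (78.5 RPKM) and Tapbp (78.4 RPKM), and Irf1 led the interferon-induced genes with 21.2 RPKM. The order of B2m and Tapbp was not the same in both genotypes: in Wfs1KO B2m was at 106 RPKM and Tapbp at 66.6 RPKM. H2-K1, H2-D1 and other class I heavy chains are alike in sequence and may share reads.

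The heavy chains were not called. H2-K1 was at 355, 374, 359 and 391 CPM in WT and at 428, 431, 397 and 369 CPM in Wfs1KO, with Wfs1KO 4 inside the WT range (log2 0.14, SE 0.06, adjusted p = 0.170). H2-D1 was at 288, 293, 283 and 314 CPM and at 340, 314, 315 and 277 CPM (log2 0.08, 95% interval -0.06 to 0.22, adjusted p = 0.466). The upper ends of the 95% intervals were 1.21-fold for H2-K1 and 1.17-fold for H2-D1.

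B2m, the light chain that every class I molecule needs at the surface, varied much more. It was at 58.1, 83.9, 60.2 and 65.5 CPM in WT and at 124, 101, 73.0 and 64.4 CPM in Wfs1KO. Replicates 1 and 2 of Wfs1KO stood above all WT libraries, and replicates 3 and 4 lay within the WT range. At log2 0.44 (SE 0.24; 95% interval from -0.13 up to 1.01) it did not pass (adjusted p = 0.270, edgeR), and it was 0.65 with replicates 1 and 2 alone and 0.12 with replicates 3 and 4 alone.

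In the peptide-loading step, tapasin fell and the TAP transporter was not called. Tapbp (tapasin, chr17:33919478-33929290), which bridges TAP and empty class I molecules, was at 227, 197, 214 and 220 CPM in WT and at 184, 179, 192 and 174 CPM in Wfs1KO. All Wfs1KO libraries lay below all WT libraries, by a narrow margin between Wfs1KO 3 and WT 2. The fit gave log2 -0.24 (SE 0.06; 95% interval from -0.36 up to -0.11; adjusted p of 0.0109 in edgeR). Exons of Tapbp overlap those of Gm19412 on the other strand and Zbtb22 on the same strand, whose reads could not be separated from its own.

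Tap1 was at 16.0, 21.5, 15.1 and 17.6 CPM in WT and at 23.9, 22, 20.5 and 16.0 CPM in Wfs1KO (log2 0.24, SE 0.13, adjusted p = 0.267). Tap2, the other chain of the transporter, was at 48.2 to 52.9 CPM and 45.4 to 54.4 CPM, and its log2 fold change was 0.01 (95% interval -0.13 to 0.14). The 3 inducible proteasome subunits were not called either: Psmb8 had a log2 fold change of 0.11 (SE 0.17), Psmb9 -0.22 (SE 0.23) and Psmb10 -0.14 (SE 0.10). Psmb9 and Tap1, which share a promoter region and overlap in their exons on opposite strands, had estimates of opposite sign, and the difference between them was not tested. Nlrc5, the transactivator of class I genes, was at 2.0, 5.54, 2.03 and 2.41 CPM in WT and at 6.44, 5.71, 2.77 and 1.88 CPM in Wfs1KO, so that WT 2, Wfs1KO 1 and Wfs1KO 2 stood above the other libraries (log2 0.51, SE 0.48, adjusted p = 0.544).

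By position, members lie on 14 chromosomes, and 7 class I genes sit in the MHC on chromosome 17 within 1348020 bases (chr17:33919478-35267497: Tapbp, H2-K1, Psmb9, Tap1, Psmb8, Tap2 and H2-D1). Of these 7, Tapbp alone was called. Wfs1 lies on chromosome 5, as do Cxcl10, Oasl2 and Oas1a, and the nearest of these is 55357657 bases from it. Exons of 12 members overlap exons of a gene on the other strand in GENCODE M21, among them Irf1 (Gm17334) and Nlrc5 (9330175E14Rik), and the counting had no strand option.

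Many members shared an order of libraries within the genotypes. Wfs1KO 1 was the highest of the 8 libraries for 13 of the 30 tested members (6 of 10 class I, 7 of 20 interferon-induced), against 15.4% of all tested genes. Wfs1KO 1 and 2 both stood above Wfs1KO 3 and 4 for 19 members (8 class I, 11 interferon-induced), against 25.3% of all tested genes. Wfs1KO 4 was the lowest library for 12 members, against 13.6%. Among WT libraries, WT 2 was the highest of all 8 for 7 members, against 15.2%.

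Averaged over the class I genes, log2 CPM stood 0.33, 0.25, -0.0046 and -0.27 from the WT mean in Wfs1KO 1 to 4, and at -0.07, 0.23, -0.14 and -0.02 in WT 1 to 4. The interferon-induced genes gave 0.29, 0.10, -0.04 and -0.22 in Wfs1KO, and -0.01, 0.16, -0.14 and -0.0013 in WT. In Wfs1KO 1 to 4 the medians were 0.21, 0.16, 0.06 and -0.23 for class I. For the interferon-induced genes they were 0.19, 0.06, 0.01 and -0.15. In WT 2 the medians were 0.14 for class I and 0.10 for the interferon-induced genes. Wfs1KO 1 was at the top and Wfs1KO 4 at the bottom in both arms, while the libraries between them came in different orders.

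**Figure D3:**
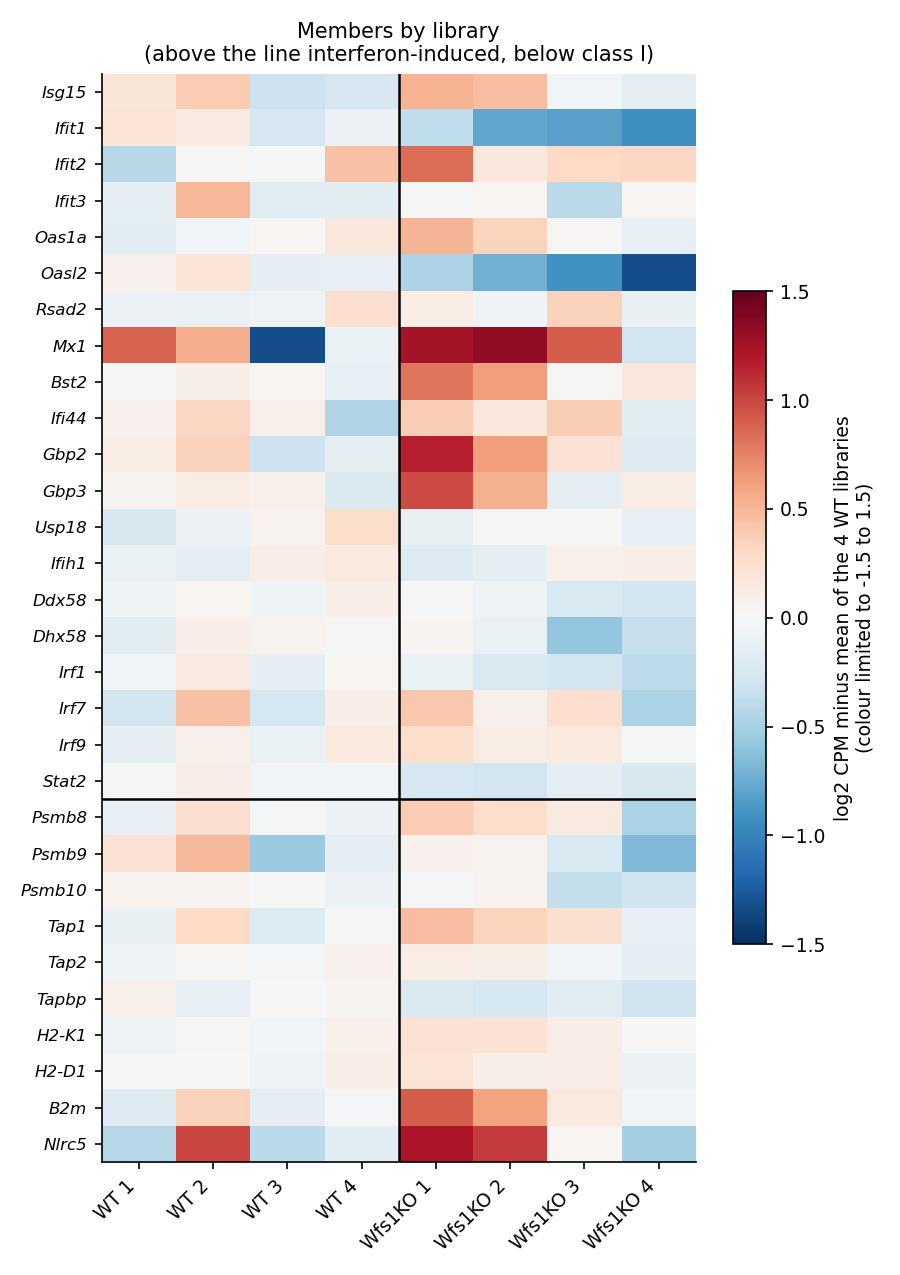
Log2 CPM of each tested member (rows, interferon-induced above the line and class I below) in the 8 libraries (columns), as the difference from the mean of the 4 WT libraries, red higher and blue lower. Wfs1KO 1 and 2 are red for B2m, Nlrc5, Gbp2, Gbp3 and Bst2, Wfs1KO 4 is blue or pale for most members, and Ifit1 and Oasl2 are blue in all 4 Wfs1KO libraries.

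Leukocyte markers were also high in Wfs1KO 1, Wfs1KO 2 and WT 2, and the order of the other libraries differed. The 7 pan-leukocyte markers, among them Ptprc (CD45), summed to 50.2, 96.1, 45 and 44.6 CPM in WT and to 143, 106, 74.7 and 41.1 CPM in Wfs1KO. None of the 7 was called, their median log2 fold change was 0.65, and none was at 0 in any library. The 14 macrophage markers summed to 129 to 192 CPM in WT and 142 to 299 CPM in Wfs1KO, with none called, and the 9 class II and dendritic cell markers to 230 to 388 and 217 to 611 CPM, with 1 (Zbtb46) risen. The 10 T and NK cell markers in the table summed to 5.61 to 17.3 and 4.16 to 24.8 CPM with none of the 8 tested called, and Nkg7, Gzma and Ncr1 were at 0 in some libraries. The 4 B cell markers, of which none was called, had another order, with sums of 35.6, 51.4, 26.2 and 22.2 CPM in WT and of 50.8, 35.5, 41.0 and 11.1 CPM in Wfs1KO.

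With the log2 of the pan-leukocyte sum as a covariate, an alternative chosen after these values were seen, 7 of the 30 tested members were called and all were lower in Wfs1KO. Over all 15733 tested genes that fit called 3209, 1761 higher and 1448 lower in Wfs1KO, against 2970 without the covariate. The 5 that fell in the fit without it were called again, with Ddx58 (log2 -0.22, adjusted p = 0.0458) and Psmb9 (log2 -0.52, adjusted p = 0.0235) in addition. In that fit B2m had a log2 fold change of 0.12 (adjusted p = 0.308) and Bst2 0.25 (adjusted p = 0.299), and the medians were -0.02 for interferon-induced and -0.11 for class I genes. Which cells the RNA of these members came from was not tested.

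**Figure D4:**
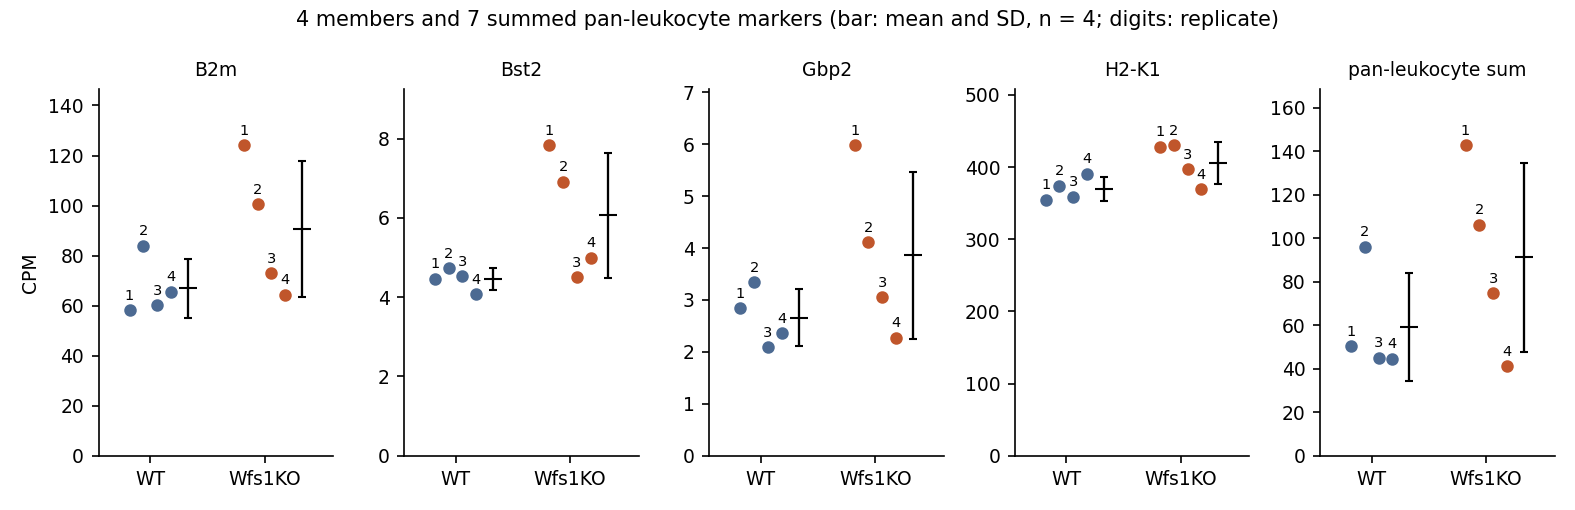
CPM (y axes, from 0) of B2m, Bst2, Gbp2 and H2-K1 and of 7 summed pan-leukocyte markers in the 4 WT and 4 Wfs1KO libraries (points, numbered by replicate), with the mean and SD as bars. In B2m, Gbp2 and the leukocyte sum, Wfs1KO 1 is the highest point, Wfs1KO 2 the next, and WT 2 the highest of the WT libraries.

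Over all tested genes the replicates fall into 2 sets, 1 and 2 against 3 and 4, and the difference between the sets was not tested. On the first principal component of log2 CPM (the main axis of difference between libraries), WT 1 to 4 were at -14.4, -31.2, 12.3 and 2.86. Wfs1KO 1 to 4 were at -29.8, -15.3, 39.4 and 36.2. The averages of the 2 arms and the pan-leukocyte sum did not follow this split in WT, where WT 2 alone stood high. With replicates 1 and 2 alone the log2 fold changes were 0.67 for Bst2, 0.70 for Gbp2, 0.71 for Gbp3 and 0.69 for Nlrc5, and with 3 and 4 alone 0.14, 0.24, 0.06 and 0.05. Bst2 (adjusted p = 0.0154, edgeR) and Gbp2 (0.0459) were called with replicates 1 and 2 alone, while Irf1 was not (0.0676). Cxcl10 was called as well (log2 1.66, adjusted p = 0.0277). It passed that fit's count filter only with its Wfs1KO libraries, where it was high, so its call was not independent of the filter. For Oasl2 the values were -0.74 and -1.0, for Ifit1 -0.77 and -0.73, for Tapbp -0.24 and -0.26, and for Irf1 -0.24 and -0.30. Stat2 gave -0.33 and -0.16, and with replicates 3 and 4 alone neither Stat2 (adjusted p = 0.264) nor Ifit1 (adjusted p = 0.0593) was called. In the authors' deposited table (DESeq2) the same 5 members were lower with an adjusted p under 0.05, from 7.6e-05 for Oasl2 to 0.0112 for Irf1. No member was higher, where 9.36% of the genes tested here were lower and 9.98% higher by that table. It rests on the same 8 libraries, so its calls are not independent of those given here.

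Upstream of the module, interferon transcripts themselves were near the limit of detection. None of the 21 ligand genes had enough counts to be tested, no gene reached more than 12 reads in any library, and Ifna2, Ifna9, Ifna12, Ifna16 and Ifne had 0 reads in all 8, a count that allows up to 3 reads in a library. Reads over all 21 summed to 32, 26, 5 and 20 in WT and to 55, 34, 2 and 1 in Wfs1KO, lowest in replicate 3 in WT and in replicates 3 and 4 in Wfs1KO. Ifng, made by T and NK cells, had 1, 11, 1 and 1 reads in WT and 9, 8, 0 and 0 in Wfs1KO. Ifnb1 had 1 read in the whole series.

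Among 11 receptor and JAK-STAT genes, 3 rose and 1 fell (36.4% called). For this list and the related lists below, the share over all tested genes was 18.9% called, 10.4% higher and 8.49% lower in Wfs1KO. Ifngr1, the ligand-binding chain of the interferon-gamma receptor, was at 25.3, 25.9, 24.2 and 27.7 CPM in WT and at 40.0, 36.4, 29.5 and 30.6 CPM in Wfs1KO, with no overlap (log2 0.41, SE 0.09, adjusted p = 0.00747, edgeR). It was 0.56 with replicates 1 and 2 alone, 0.20 with replicates 3 and 4 alone, where it was not called, and 0.31 with the pan-leukocyte covariate. Ifnar2, a chain of the type I receptor, rose by log2 0.23 (adjusted p = 0.0232), Jak2 rose by 0.18 (0.0274) and Jak1, the most abundant of the list per length, fell by 0.18 on the log2 scale (0.0470). These last 3 calls depended on single libraries or on the block. With the replicate number as a block Jak2 had an adjusted p of 0.0519 and Jak1 of 0.0537, and removing WT 1, WT 3, Wfs1KO 1 or Wfs1KO 2 ended the call of Ifnar2 (adjusted p up to 0.0757). For Jak2 this held of WT 1, WT 4, Wfs1KO 1, Wfs1KO 2 and Wfs1KO 4 (up to 0.0846), and for Jak1 of every library other than WT 4 and Wfs1KO 4 (up to 0.139).

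Of 10 genes listed as brakes on interferon signalling, 1 rose, Isg20, from 47.2, 49.7, 49.6 and 49.1 CPM to 77.2, 82.7, 72.6 and 73.3 CPM (log2 0.65, SE 0.06, adjusted p = 4.66e-06, edgeR). Isg20 is an interferon-induced exonuclease that degrades RNA rather than a brake on signalling, so no gene with that role was called. Ptpn11, the most abundant of the list per length, had a log2 fold change of 0.02. Among 21 nucleic acid sensing genes none rose and 1 fell, the endosomal double-stranded RNA receptor Tlr3 (log2 -0.27, adjusted p = 0.0294), which lost its call with the replicate block (0.0569) and on removal of WT 3, WT 4, Wfs1KO 1, Wfs1KO 2 or Wfs1KO 3 (up to 0.0808). Trim25, the most abundant of these per length, was not called (log2 -0.11).

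A wider list of 58 interferon-induced genes moved in both directions: of 56 tested, 7 rose, 9 fell and 40 were not called (28.6% called, median log2 fold change 0.12). Over all tested genes 18.9% were called and the median log2 fold change was 0.01. Ddx60, a helicase that aids RIG-I signalling, fell from 14.5, 13.6, 11.3 and 13.4 CPM to 6.30, 7.98, 7.91 and 6.19 CPM (log2 -0.90, SE 0.12, adjusted p = 0.00013, edgeR). Of the 3 Schlafen genes listed, Slfn5 and Slfn8 rose, and Slfn2, named after its values were seen, was not called (log2 0.64, SE 0.48, adjusted p = 0.429). Slfn5 went from 21.2 to 26.2 CPM in WT to 34.9 to 39.0 CPM in Wfs1KO (log2 0.66, adjusted p = 3.98e-05), and Slfn8 from 2.01 to 3.17 CPM to 4.90 to 5.67 CPM (log2 1.16, adjusted p = 0.000368). Cd274, which encodes the checkpoint ligand PD-L1, rose from 21.4 to 24.6 CPM to 31 to 33.4 CPM (log2 0.46, adjusted p = 0.000207), and Lgals3bp, the most abundant per length, rose by log2 0.32 (adjusted p = 0.00191). Ddx60, Slfn5, Slfn8, Cd274 and Lgals3bp did not overlap between genotypes, and none of the 5 lost its call without any 1 library. Genes of this list were named mainly for a small adjusted p in these same libraries, so neither observation is separate support. In the list 11 genes were lower and 6 higher without overlap, against 10.3% and 12.3% of all tested genes. Slfn5 and Cd274 overlap antisense genes. Endothelial markers (12 of 14) and stellate cell and fibroblast markers (3 of 12) rose in the same libraries, and their part in these rises was not tested.

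Chosen after their values were seen, the other falls of that list were Ifit3b, Dtx3l, Parp9, Parp14, Znfx1, Uba7, Cmpk2 and Ifi35, and the other rises Gbp9, Ifitm3 and Iigp1. Ifit3b, the near copy of Ifit3, was at 1.52 to 2.83 CPM in WT and 0.484 to 1.04 CPM in Wfs1KO (log2 -1.30, SE 0.32, adjusted p = 0.0115). Dtx3l (log2 -0.36, adjusted p = 0.000955) and Parp9 (log2 -0.25, adjusted p = 0.0129), partners in an ADP-ribosylation complex, overlap each other in their exons. Uba7, which activates Isg15 for conjugation, had a log2 fold change of -0.38 (adjusted p = 0.0360) and was no longer called once WT 1, WT 2 or Wfs1KO 4 was removed (adjusted p up to 0.0999). Calls also ended for Ifi35 on removal of any 1 library other than WT 1 and Wfs1KO 2 (adjusted p up to 0.0997), and for Iigp1 on removal of WT 3, WT 4 or Wfs1KO 1 (up to 0.0829). That of Cmpk2 ended on removal of any 1 library other than WT 1 and WT 2 (up to 0.117) and with the replicate block (0.0564).

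Among 17 tested further genes of class I presentation, 5 rose and 1 fell (35.3% called, against 18.9% of all tested genes). The non-classical heavy chain gene H2-T22 rose from 21.4 to 26.0 CPM to 35.0 to 37.5 CPM (log2 0.60, SE 0.07, adjusted p = 3.98e-05). The lectin chaperone Calr (log2 0.45, adjusted p = 0.00024) and the disulfide isomerase Pdia3 (log2 0.42, adjusted p = 0.000662), which sit in the loading complex with tapasin and also fold other proteins, rose as well. Pdia3, the most abundant of the list per length, went from 835 to 950 CPM in WT to 1169 to 1265 CPM in Wfs1KO. H2-Q2 fell (log2 -0.27, adjusted p = 0.00406). H2-M3 and Tapbpl, named after their values were seen, rose by log2 0.31 and 0.27. Tapasin thus fell while 2 partners of its loading complex and its homologue Tapbpl rose, and members of the heavy chain family may share reads.

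None of the 3 standard proteasome subunits was called (median log2 fold change 0.21, all positive), and 2 had an unadjusted p under 0.05. Psmb7, the most abundant of the 3 per length, had a log2 fold change of 0.05. Of 12 tested NF-kappaB factors and cytokine-induced islet genes, Fas, a death receptor (log2 0.70, adjusted p = 0.0086), and Icam1, an adhesion molecule (log2 1.25, adjusted p = 0.0209), rose. Icam1 was no longer called once WT 1, WT 3, WT 4 or Wfs1KO 2 was removed (adjusted p up to 0.0658). Nfkbia, the inhibitor that NF-kappaB itself induces and the most abundant of the list per length, was not called (log2 -0.02).

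**Figure D5:**
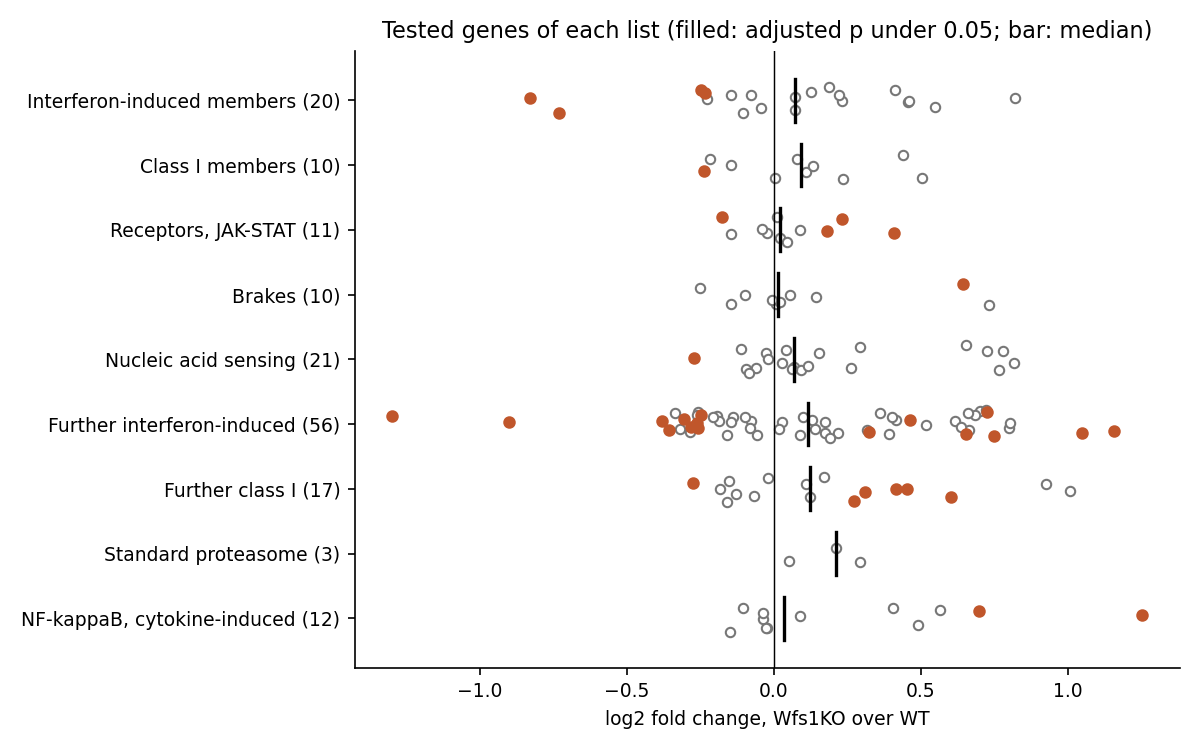
Log2 fold change of Wfs1KO over WT (x axis) for every tested gene of the 2 arms of the module and of 7 related lists (rows, number tested in brackets), filled where the adjusted p was under 0.05, with a bar at each median. Filled points of the members all lie below 0, while those of the further interferon-induced and class I genes lie on both sides.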

How the data were processed

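RNA was measured in 8 islet libraries, 4 per genotype. Per the submitters' processing notes, the tools were STAR 2.6.0a (mm10) and HOMER 4.11.1. The deposited values are raw counts over RefSeq exons, 1 entry per gene and no strand option, per the file headers. The authors also deposited log2 fold changes and p-values of their own comparison (DESeq2, per the submitters' processing notes), quoted only as such.

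The main test was edgeR 4.0.16 under R 4.3.3 (TMM, filterByExpr by group with minimum count 10 and minimum total count 15, robust quasi-likelihood F-test), and 15733 genes were tested, with Benjamini-Hochberg adjustment over all of them. The common biological coefficient of variation was 10.7%. SE was taken as |log2 fold change| divided by the square root of F. The fit was tested on simulated counts drawn independently for each library. That simulation cannot show how the fit behaves where libraries deviate together, as they do here. DESeq2 1.42.0 and limma 3.58.1 gave alternatives. All 31 members were named; from each related list, up to 4 called genes with the smallest adjusted p and the most abundant tested gene per length were named. The members and lists were chosen with earlier results of these data known. Same-numbered WT and Wfs1KO libraries deviated together from their genotype means (correlations across genes 0.153, 0.443, 0.269 and 0.188). What the labels' replicate numbers stand for is not given in the sources used here. Promoters are from RefSeq (GRCm38.p6), and exon overlaps from GENCODE M21.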

Additional observations from a re-analysis of the deposited data

Results flagged for a closer look

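Each member's CPM was examined in each genotype for a library far from the other 3, that is with a gap to the nearest, over the range, above Dixon's 95% critical value. Of 62 groups of 4 libraries, 5 stood out, where chance gives about 1 in 20. WT 2 was the highest WT library for Nlrc5, at 5.54 CPM with the next at 2.41 CPM, for Ifit3, at 2.77 CPM with the next at 1.73 CPM, and for Stat2, at 35.6 CPM with the next at 32.6 CPM. WT 2 was also the WT library with the highest pan-leukocyte sum, 96.1 CPM. Without it Stat2 was still called and the call of Irf1 was lost (adjusted p = 0.0851, edgeR). WT 4 was the highest WT library for Rsad2, at 19.7 CPM with the next at 15.7 CPM. Wfs1KO 3 was the lowest Wfs1KO library for Ifit3, at 1.44 CPM with the next at 1.93 CPM. Of these 4 genes, Stat2 was called between genotypes.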

How the results depend on the processing

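The count of members called, 5, ran from 4 to 6 when 1 library was left out, that of interferon-induced members from 3 to 5, that of class I members stayed at 1, and that of all genes ran from 2387 to 2734. With replicates 1 and 2 alone 7 members were called, 3 higher (Bst2, Gbp2 and Cxcl10) and 4 lower, 6 of them interferon-induced (3 higher and 3 lower), and 2939 genes in all. Cxcl10 passed the count filter of that fit only with its Wfs1KO libraries, where it was high. With replicates 3 and 4 alone 3 members were called (2 interferon-induced) and 1846 genes in all. At an adjusted p under 0.01 the counts were 2 members, both interferon-induced, 0 class I members and 1744 genes. With the pan-leukocyte covariate, chosen after the data were seen, 7 members were called, 2 of them class I, and 3209 genes in all. With replicates 1 and 2 and replicates 3 and 4 fitted as 2 batches, 6 members were called, 1 higher (Bst2) and 5 lower, and 3417 genes in all. With the replicate block 5 members and 2932 genes were called, and among the genes named the block changed no call other than those of Jak1, Jak2, Tlr3 and Cmpk2. Oasl2 and Tapbp were called in all 19 settings recomputed per gene. Of 567 recomputed member fold changes, 551 stayed on the same side of the threshold, 9 lost and 7 gained a call, and 0 called values changed sign. Sign changes of values that were not called numbered 28, in 11 members. With DESeq2's size factors 1520 genes rose and 1425 fell, against 1635 and 1335 with TMM. The cause of these differences was not tested, and the fits that left libraries out also differ in the number of libraries. Counts were lowest for Isg15, Mx1, Cxcl10 and the interferon ligands.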
